A study of Arabidopsis thaliana with 4 samples.

Results

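The transcriptional response of wild-type Arabidopsis thaliana shoot apices to zebularine was read from WT_zeb against WT_ctrl, which are 2 of the 4 samples of the study and hold 4 of its 8 libraries. Members were chosen by the deposited raw count columns R1 and R2 of both groups, and every gene with values was kept, which gave 32356 of 32399 listed genes. WT_zeb plants were Col-0 seedlings moved at 9 days of age into liquid medium with 20 µM zebularine, and WT_ctrl plants were Col-0 seedlings moved at the same age into that medium without the drug. Apices freed of leaves, hypocotyl and roots were frozen 24 h later, at 10 days of age. All groups grew at 21 °C with 16 h of light and 8 h of dark, and the hour of harvest is not given. The other pair of groups, nse4a-2_zeb and nse4a-2_ctrl, was handled alike and carries nse4a-2, a mutant allele of NSE4A, a subunit of the SMC5/6 complex, in the Col-0 background. The mutant groups entered the fit and were used to ask where the wild-type response differed, and the lesion of the allele is not given. Poly(A) RNA was sequenced with a TruSeq type kit as single-end reads of 100 bases. How many plants made up a library is not given, and the file headers call R1 and R2 biological replicates.

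Zebularine is a cytidine analogue that is built into DNA and traps DNA methyltransferases there, which both lowers DNA methylation and creates DNA-protein crosslinks. In plants it activates the DNA damage response, and genes of that response, of the circadian clock and of mitosis were set aside here. Flavonoids are phenolic compounds made from phenylalanine, and their anthocyanin branch makes red to purple pigments of vacuoles under strong light, cold and other stress. Jasmonates are hormones made from plastid fatty acids after wounding or touch, and their JAZ repressors are themselves switched on by the hormone.

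Total counts were 19811948 and 19104013 in WT_zeb and 18102518 and 15420525 in WT_ctrl, and 15360494 to 19811948 over the 8 libraries, where 3 counts, the limit that a count of 0 allows, equal 0.151 to 0.195 CPM, the counts of a gene scaled to the library's total. On principal component 1, with 59% of the variance of the 4 wild-type libraries, WT_zeb scored 32.7 and 35.8 and WT_ctrl −47.1 and −21.3, and on component 2, with 25.2%, WT_zeb scored −33.7 and 31.8 and WT_ctrl −0.2 and 2.1. The WT_ctrl libraries were thus the further apart on component 1 and the WT_zeb libraries on component 2, and r between replicates across genes was 0.981 in WT_zeb and 0.986 in WT_ctrl. The apex label was checked against 11 meristem genes: ATML1, an epidermal homeobox gene, had 197 and 200 CPM in WT_zeb and 194 and 203 CPM in WT_ctrl, and STM, which maintains the meristem, had 19.4 and 19.8 CPM in WT_zeb and 17.3 and 20.3 CPM in WT_ctrl. WUS, the organizer gene of the stem cell niche, was near its limit with 1 and 0 counts in WT_zeb and 1 and 3 counts in WT_ctrl. The 7 root markers, 4 of them tested, summed to 3.43 and 4.16 CPM in WT_zeb and 8.92 and 5.57 CPM in WT_ctrl, the 6 leaf mesophyll markers to 7505 and 10458 CPM in WT_zeb and 8649 and 7004 CPM in WT_ctrl, and the 8 stomatal markers to 80.8 and 95.5 CPM in WT_zeb and 127 and 103 CPM in WT_ctrl. None of these 4 marker lists held a called gene, while 3, 3, 1 and 3 members of the apex, root, mesophyll and stomatal lists had an unadjusted p below 0.05 in edgeR's test, and DESeq2 called 1 apex and 1 mesophyll marker. In whole apices, fewer cells of a type and less RNA per cell cannot be told apart.

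Zebularine changed a small share of the transcriptome of wild-type apices, and more genes rose than fell. Of 19682 genes tested, 327 rose (1.66%) and 125 fell (0.635%) where a gene was called at an adjusted p below 0.05 (edgeR's quasi-likelihood test, adjusted over all genes by Benjamini and Hochberg; the same test gives every adjusted p that follows), and the median log2 fold change of all genes tested was −0.01. The rises were mostly of 2-fold or more (225 genes, 68.8% of them), and 54 of the falls were. The authors' deposited table calls 843 genes higher and 279 lower, and 287 of the 327 rises (87.8% of these and 34% of the authors' calls) and 111 of the 125 falls (88.8% and 39.8%) are among them. Of all calls, 28 of the 452 called genes belong to the clock, damage and mitosis lists. Calls depended on single libraries: the test called 18 rises and 5 falls without WT_ctrl R1, 447 and 79 without WT_ctrl R2, 189 and 65 without WT_zeb R1 and 159 and 124 without WT_zeb R2. Of 77 called genes that the naming rule picked, 11, 57, 46 and 42 stayed called in those fits.

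The firmest calls were 23 genes that passed the test with each of the 4 wild-type libraries left out in turn, 18 of them higher and 5 lower, and 16 of them lay outside the clock, damage and mitosis lists. AT4G22960, annotated only as a protein with a domain of unknown function, had 3.58 and 3.94 CPM in WT_zeb and 0.275 and 0.448 CPM in WT_ctrl, a log2 fold change of 3.37 ± 0.28 (SE; adjusted p = 0.00147). Its level in WT_zeb lay above WT_ctrl with no overlap. AT5G03350, a legume lectin family gene, had 55.2 and 72.8 CPM in WT_zeb and 10.7 and 14.2 CPM in WT_ctrl (2.37 ± 0.19, adjusted p = 0.00147). GSTF6, a glutathione S-transferase that conjugates glutathione to reactive compounds, had 54.7 and 55.4 CPM in WT_zeb and 12.6 and 17.7 CPM in WT_ctrl (1.87 ± 0.20, adjusted p = 0.00391). Both stood well above their control libraries. GBSS1, the granule-bound starch synthase that makes amylose, rose by 1.57 ± 0.15 (67 and 71.2 CPM in WT_zeb, 20.5 and 26.1 CPM in WT_ctrl), and NDA1, an alternative NAD(P)H dehydrogenase, rose by 1.65 ± 0.18. HCAR, a reductase of the chlorophyll cycle, had 9.95 and 14 CPM in WT_zeb and 38.7 and 35.9 CPM in WT_ctrl, a fall of 1.64 ± 0.16 on the log2 scale (adjusted p = 0.00319). GBSS1, NDA1, HCAR and AT5G03350 were named after their values were seen.

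Genes of the anthocyanin branch rose together in WT_zeb. Of 8 late anthocyanin enzymes tested, out of 9 listed, 7 rose (87.5%, against 1.66% of all genes tested) and none fell. Their median log2 fold change was 1.82. All 8 had both WT_zeb libraries above both WT_ctrl libraries, as did 23.7% of all genes tested. BAN, the reductase of proanthocyanidin synthesis in seed coats, had 0 counts in the 4 wild-type libraries. Of 10 early flavonoid enzymes, which feed both flavonols and anthocyanins, 3 rose (30%) and none fell (median 0.50). Of 8 enzymes at the entry from phenylalanine none was called (median 0.32, 2 with an unadjusted p below 0.05 in edgeR's test, 1 called by DESeq2).

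DFR, the first enzyme committed to anthocyanins, had 28.5 and 23.7 CPM in WT_zeb and 5.51 and 3.65 CPM in WT_ctrl, a log2 fold change of 2.50 ± 0.21 (5.66-fold, adjusted p = 0.00147). LDOX, the dioxygenase after it, had 37 and 40.3 CPM in WT_zeb and 9.58 and 9.48 CPM in WT_ctrl (2.02 ± 0.17, 4.05-fold, adjusted p = 0.00147). In both genes the WT_zeb libraries were several times the WT_ctrl libraries, and replicates of a group lay close together. Sugar and acyl groups are then added to anthocyanins, and all but 1 of the listed genes of these steps rose. UGT79B1, a glycosyltransferase, had 6.23 and 8.37 CPM in WT_zeb and 1.32 and 1.86 CPM in WT_ctrl (2.2 ± 0.29, adjusted p = 0.0084). AT4G14090, annotated as a UDP-glycosyltransferase, had 18.3 and 15.6 CPM in WT_zeb and 5.01 and 4.36 CPM in WT_ctrl (1.85 ± 0.19, adjusted p = 0.00366). The acyltransferases 5MAT and SCPL10 rose by 1.78 ± 0.24 and 1.5 ± 0.18 (adjusted p = 0.00852 and 0.00649), and TT19, the glutathione S-transferase that helps carry anthocyanins to the vacuole, by 1.25 ± 0.23 (adjusted p = 0.0264). BGLU10, a glycoside hydrolase family member that adds glucose to anthocyanins, had 10 and 13.8 CPM in WT_zeb and 8.21 and 9.23 CPM in WT_ctrl and was not called (0.45 ± 0.22, adjusted p = 0.357).

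Of the early enzymes some passed and others did not. TT7, which adds a hydroxyl group to the B ring, had 12.6 and 10.6 CPM in WT_zeb and 3.91 and 4.16 CPM in WT_ctrl (1.52 ± 0.22, adjusted p = 0.0112). F3H, which makes dihydroflavonols, had 28.8 and 31.4 CPM in WT_zeb and 17.2 and 15.5 CPM in WT_ctrl (0.88 ± 0.14, adjusted p = 0.0148), and UGT78D2, a flavonoid glucosyltransferase, rose by 0.99 ± 0.16 (adjusted p = 0.0153). These 3 were the called early enzymes, and their groups did not overlap. Chalcone synthase, TT4, the first enzyme of the pathway, had 82.7 and 109 CPM in WT_zeb and 61 and 59.5 CPM in WT_ctrl without passing (0.67 ± 0.24, adjusted p = 0.197). PAL2 and PAL1, which deaminate phenylalanine, stood at 0.89 (adjusted p = 0.0707) and 0.39 (adjusted p = 0.333).

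Among 12 flavonoid regulators tested, out of 16 listed, only TT8 rose (8.33%, against 1.66% of all genes tested). TT8, a bHLH partner of MYB factors at late pathway promoters, had 14.8 and 12.6 CPM in WT_zeb and 7.66 and 6.66 CPM in WT_ctrl (0.93 ± 0.16, adjusted p = 0.0238). MYB75, the MYB activator of anthocyanin genes also known as PAP1, had 2.45 and 2.24 CPM in WT_zeb and 1.16 and 0.641 CPM in WT_ctrl, which did not pass (1.36 ± 0.47, adjusted p = 0.175). MYB11, MYB12, MYB113 and MYB114 had at most 9 counts in any wild-type library and were below the filter. Leaving out WT_ctrl R1 left 3 of the late enzymes called, DFR, LDOX and AT4G14090, and these were the called ones of all 30 flavonoid genes tested, against 11 with all libraries. Of those 30 genes 8 or 9 rose without any other wild-type library, and 1, the nitrogen-responsive repressor LBD37, fell without WT_zeb R1 (−1.03, adjusted p = 0.0334, against −0.32 with all libraries).

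**Figure D1:**
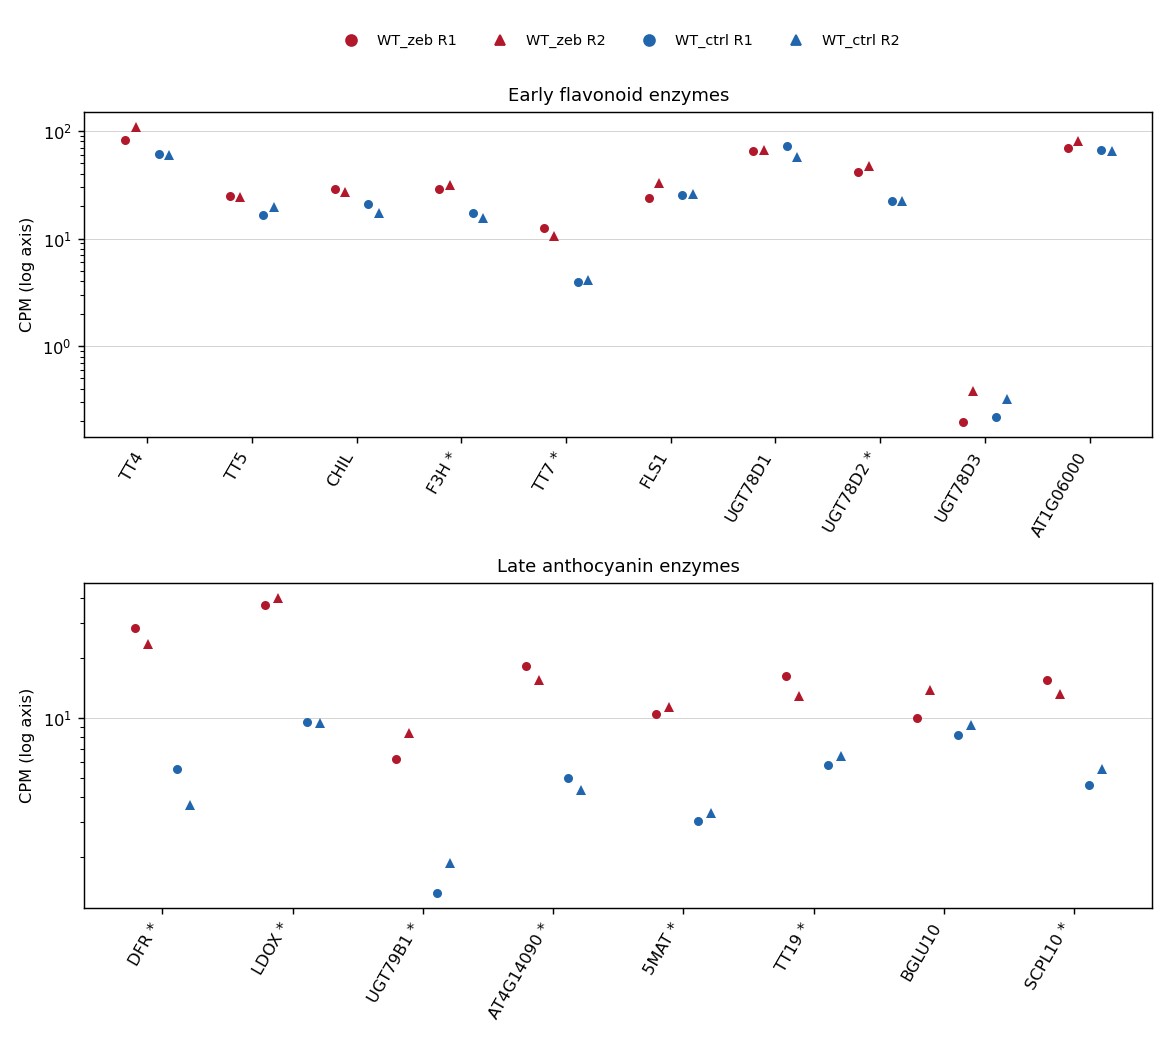
CPM (log axis) of every tested early flavonoid enzyme (top) and late anthocyanin enzyme (bottom) in each wild-type library. Red marks WT_zeb and blue WT_ctrl, circles are R1 and triangles R2, and an asterisk marks an adjusted p below 0.05. All 8 late enzymes have both red points above both blue points, as do 23.7% of all genes tested. DFR and LDOX are the widest apart of the called genes with over 20 CPM in WT_zeb.

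Part of the light-regulated genes rose, among them B-box transcription regulators, antenna proteins and HYH. Of 76 light genes in 5 lists, all of them tested, 20 rose (26.3%, against 1.66% of all genes tested) and none fell (0.635% of all genes tested), with a median log2 fold change of 0.37. The absence of falls depends on which genes were listed. HCAR of the chlorophyll cycle and the photosystem II PsbP family gene AT3G05410, both outside the lists, fell by 1.64 ± 0.16 and 0.84 ± 0.17 on the log2 scale (adjusted p = 0.00319 and 0.0353). Of 10 light-related B-box genes 6 rose, of 23 light-harvesting proteins 8, of 25 light-signalling genes 4 and of 8 chlorophyll synthesis genes 2. The 10 photoreceptors held no call, no member with an unadjusted p below 0.05 in edgeR's test, and no call by DESeq2. Their log2 fold changes ran from −0.28 for PHYC to 0.35 for PHOT1.

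B-box proteins are zinc-finger regulators that act with or against HY5, the main activator of light-induced genes. BBX25, a repressor of HY5 action, had 50.2 and 41.7 CPM in WT_zeb and 12.1 and 16.8 CPM in WT_ctrl (1.67 ± 0.19, 3.19-fold, adjusted p = 0.00491). Its close relative BBX24 rose by 0.65 ± 0.13 (157 and 156 CPM in WT_zeb, 98.1 and 102 CPM in WT_ctrl, adjusted p = 0.0381). BBX28, which hinders HY5 binding, had 57.9 and 60.7 CPM in WT_zeb and 21 and 29 CPM in WT_ctrl (1.25 ± 0.25, adjusted p = 0.0376). In these 3 genes no control library reached a WT_zeb library. The small proteins of the same family were low in WT_ctrl. BBX29 had 10.4 and 28.5 CPM in WT_zeb and 1.21 and 2.95 CPM in WT_ctrl (3.24 ± 0.59, adjusted p = 0.0273). BBX32 had 3.43 and 2.9 CPM in WT_zeb and 0.165 and 0.641 CPM in WT_ctrl (3.0 ± 0.62, adjusted p = 0.0398), and BBX30 had 42 and 23 counts in WT_zeb against 3 and 1 counts in WT_ctrl (3.74 ± 0.66, adjusted p = 0.0246). BBX30 and BBX32 had at most 10 counts in a WT_ctrl library, so the size of their change is uncertain. The activators of the family, BBX20, BBX21 and BBX22, stood between −0.11 and −0.01 and were not called.

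HYH, the bZIP homologue of HY5, had 28.6 and 19.4 CPM in WT_zeb and 6.94 and 8.39 CPM in WT_ctrl (1.65 ± 0.22, adjusted p = 0.00833), whereas HY5 itself had 8.53 and 7.44 CPM in WT_zeb and 9.8 and 10.3 CPM in WT_ctrl (−0.33 ± 0.17, adjusted p = 0.388). HYH was above and HY5 below the control libraries, of which only the HYH difference passed the test. SPA3, a partner of the ubiquitin ligase COP1, rose by 0.92 ± 0.15 (adjusted p = 0.0162) and PIF5, a growth-promoting bHLH factor degraded in light, by 0.84 ± 0.17 (adjusted p = 0.0369). RUP2, which resets the UV-B receptor, had 5.34 and 5.31 CPM in WT_zeb and 2.31 and 2.43 CPM in WT_ctrl (1.16 ± 0.24, adjusted p = 0.042).

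Light-harvesting proteins bind chlorophyll around the photosystems, and 22 of the 23 genes had a positive log2 fold change. LHCB2.1 had 376 and 442 CPM in WT_zeb and 157 and 153 CPM in WT_ctrl (1.4 ± 0.16, adjusted p = 0.00477), and LHCB2.2, LHCB2.3 and LHCB1.4 rose by 1.11, 1.2 and 1.12. These copies are near-identical in sequence, so how reads were split among them is uncertain. LHCB3, an antenna protein with no such copy, had 1187 and 1509 CPM in WT_zeb and 803 and 653 CPM in WT_ctrl (0.89 ± 0.16, adjusted p = 0.0262), and LHCB4.2 rose by 0.62 ± 0.13 (adjusted p = 0.0476). ELIP2, a photoprotective relative made under strong light, had 13.7 and 12.5 CPM in WT_zeb and 4.41 and 3.08 CPM in WT_ctrl (1.80 ± 0.21, adjusted p = 0.00477), and ELIP1 rose by 1.79 ± 0.31 (adjusted p = 0.0238). In chlorophyll synthesis HEMA1, the rate-limiting glutamyl-tRNA reductase, had 192 and 199 CPM in WT_zeb and 111 and 107 CPM in WT_ctrl (0.84 ± 0.10, adjusted p = 0.00693), CAO, which makes chlorophyll b, rose by 0.72 ± 0.15 (adjusted p = 0.04), and PORB, a light-dependent reductase, had 296 and 467 CPM in WT_zeb and 786 and 673 CPM in WT_ctrl without passing (−0.94 ± 0.22, adjusted p = 0.0612). Every called gene of these lists was higher in both WT_zeb libraries, which adds little to the calls themselves.

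Beside the light genes the dawn clock regulators moved. CCA1 had 87.3 and 90.7 CPM in WT_zeb and 15 and 16.7 CPM in WT_ctrl, and LHY 149 and 112 CPM in WT_zeb and 20.3 and 18 CPM in WT_ctrl, and since harvest hours are not given, the drug and an hour of the day cannot be told apart for genes with a daily rhythm. The mesophyll marker RBCS1A, the small subunit of Rubisco, overlapped between groups at 4043 and 5713 CPM in WT_zeb and 5097 and 4051 CPM in WT_ctrl. Without WT_ctrl R1 all calls among the 76 genes but that of ELIP2 were lost, and part of the calls were lost without each other wild-type library. Without WT_ctrl R1 the log2 fold changes of the 20 called genes lay between 0.63 for BBX24 and 4.56 for BBX30. For LHCB2.1, HEMA1 and BBX25 they were 1.42, 0.87 and 1.46. These genes were picked as called from the same libraries, so such values do not offset the lost calls. BBX30 then rests on 1 count in WT_ctrl R2. DESeq2 called 30 higher and 1 lower.

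**Figure D2:**
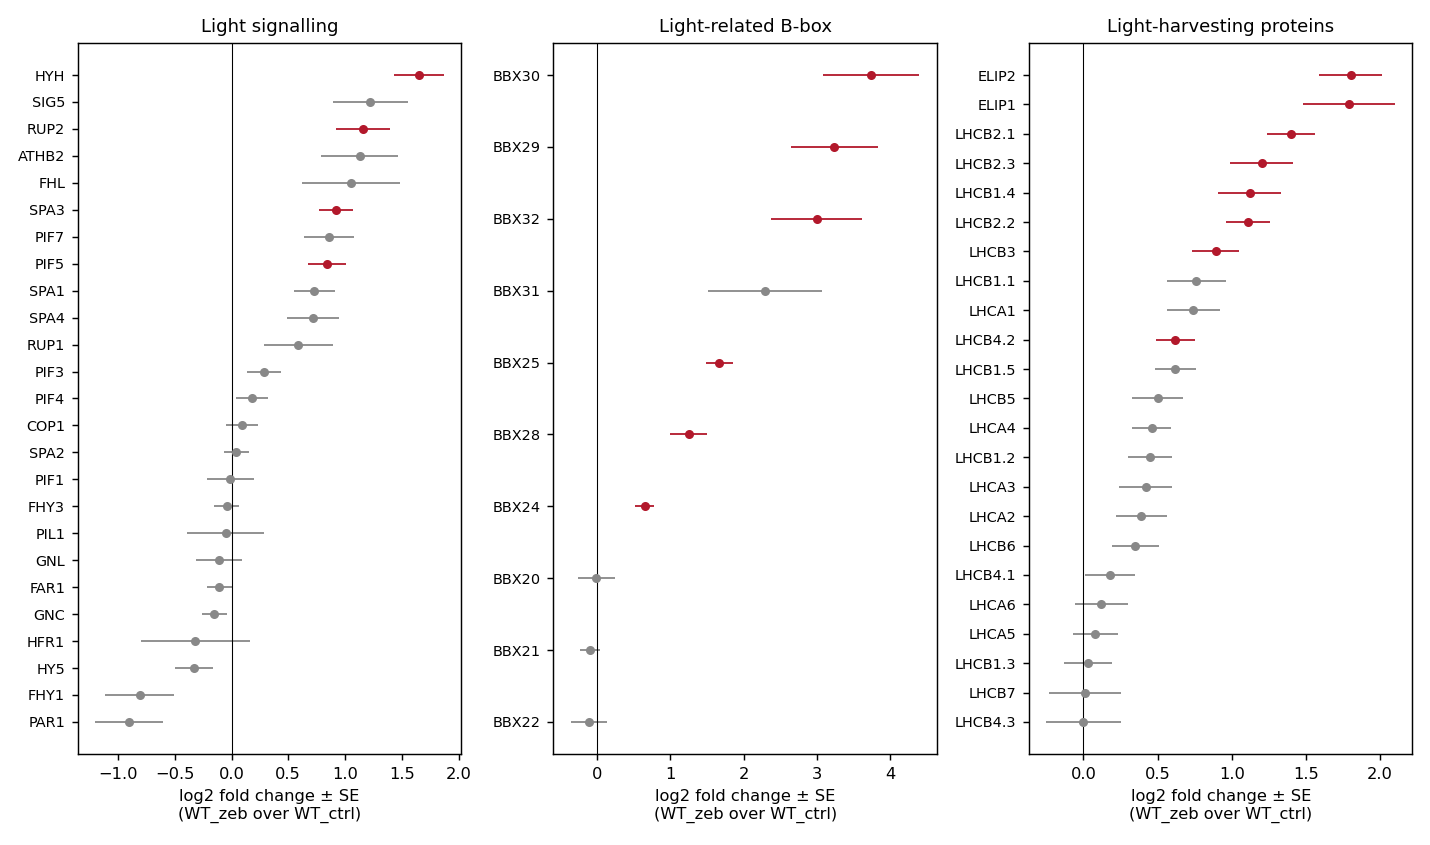
Log2 fold changes of WT_zeb over WT_ctrl with their SE for every tested gene of 3 light lists, ordered by size, with red points at an adjusted p below 0.05 and grey points above it. The 6 called B-box genes run from 0.65 to 3.74, and 22 of 23 light-harvesting genes lie right of 0.

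Touch and wound genes were all higher in WT_zeb. Jasmonate lists had positive medians except for output, and a difference by role was not tested. In both groups most single genes did not pass the test. Of 52 jasmonate genes tested, out of 58 listed, 2 rose and 1 fell (5.77% called, against 2.3% of all genes tested), with medians of 0.38 for synthesis, 0.68 for turnover, 0.35 for perception and repressors and −0.32 for output. DESeq2 called 7 of them higher and 2 lower, and edgeR without the low-count filter 13 and 3. Of 17 touch and wound genes 2 rose (11.8%, against 1.66% of all genes tested, median 1.71). DESeq2 called 6 of them and edgeR without the low-count filter 17. All 17 touch and wound genes had both WT_zeb libraries above both WT_ctrl libraries, as did 23.7% of all genes tested. All 17 also had an unadjusted p below 0.05 in edgeR's test. Their median log2 ratio of R2 over R1 was 1.52 within WT_ctrl and 0.06 within WT_zeb, and their summed level was 2114 and 2354 CPM in WT_zeb and 431 and 1108 CPM in WT_ctrl, so WT_ctrl R1 lay below WT_ctrl R2 in these genes. The part of that gap in the results was not tested.

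CML37, a calmodulin-like calcium sensor, had 12.8 and 13.1 CPM in WT_zeb and 0.33 and 2.43 CPM in WT_ctrl (3.27 ± 0.65, adjusted p = 0.0345), and CAF1A, a subunit of the poly(A)-removing complex, had 180 and 180 CPM in WT_zeb and 63.7 and 101 CPM in WT_ctrl (1.13 ± 0.24, adjusted p = 0.0429). These were the called members. WRKY33, a pathogen-response transcription factor, had 111 and 153 CPM in WT_zeb and 13.2 and 67.1 CPM in WT_ctrl (1.72 ± 0.59, adjusted p = 0.178). WRKY40, a related repressor, had 89.1 and 93.7 CPM in WT_zeb and 5.23 and 25.2 CPM in WT_ctrl (2.60 ± 0.61, adjusted p = 0.0604). TCH4, the touch-induced xyloglucan-modifying enzyme, had 285 and 331 CPM in WT_zeb and 61.6 and 161 CPM in WT_ctrl (1.47 ± 0.37, adjusted p = 0.0766). For these 3, named after their values were seen, WT_ctrl R1 was the lowest library and WT_ctrl R2 lay between it and WT_zeb. Without WT_ctrl R2 the test called 16 of the 17 touch and wound genes, and without any of the other 3 wild-type libraries it called none.

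In jasmonate synthesis LOX3, a lipoxygenase at the first step, had 23.3 and 63.2 CPM in WT_zeb and 5.4 and 7.05 CPM in WT_ctrl (2.80 ± 0.53, 6.96-fold, adjusted p = 0.0303). AOS, the allene oxide synthase that follows, had 71.2 and 110 CPM in WT_zeb and 30.5 and 48.1 CPM in WT_ctrl and did not pass (1.21 ± 0.28, adjusted p = 0.0609). In both genes WT_zeb R2 was the highest library and the groups did not overlap. CYP94C1, which oxidizes and so inactivates the active hormone, had 7.06 and 11.4 CPM in WT_zeb and 2.26 and 3.33 CPM in WT_ctrl (1.73 ± 0.34, adjusted p = 0.0341). None of the 18 perception and repressor genes was called, although 8 had an unadjusted p below 0.05 and DESeq2 called 2 of them higher. JAZ5, a repressor, had 14.1 and 35.2 CPM in WT_zeb and 2.7 and 5.64 CPM in WT_ctrl (2.58 ± 0.60, adjusted p = 0.0601), and JAZ8 stood at 2.81 ± 0.78 (adjusted p = 0.0966). The central activator MYC2 had 170 and 264 CPM in WT_zeb and 46.2 and 101 CPM in WT_ctrl (1.56 ± 0.41, adjusted p = 0.0818).

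Of the 12 output genes tested 7 had a negative log2 fold change and 5 a positive one. The authors' deposited table calls 2 output genes higher and 0 lower. The defensin PDF1.2a, a joint target of jasmonate and ethylene, was the one called by edgeR, and it fell, with 7 and 8 counts in WT_zeb and 31 and 31 counts in WT_ctrl (−2.22 ± 0.40, adjusted p = 0.026). It has close copies, among which reads may have been split. VSP2, a storage protein of leaves used as a jasmonate marker, had 5.05 and 9.52 CPM in WT_zeb and 2.86 and 2.75 CPM in WT_ctrl (1.37 ± 0.45, adjusted p = 0.153), and VSP1 overlapped between groups. Leaving out WT_ctrl R1 or WT_zeb R2 left no jasmonate gene higher, while 5 were higher without WT_ctrl R2 and 8 without WT_zeb R1. None was lower in those fits except without WT_zeb R2, where AOC2, PDF1.3 and PR4 were called lower.

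**Figure D3:**
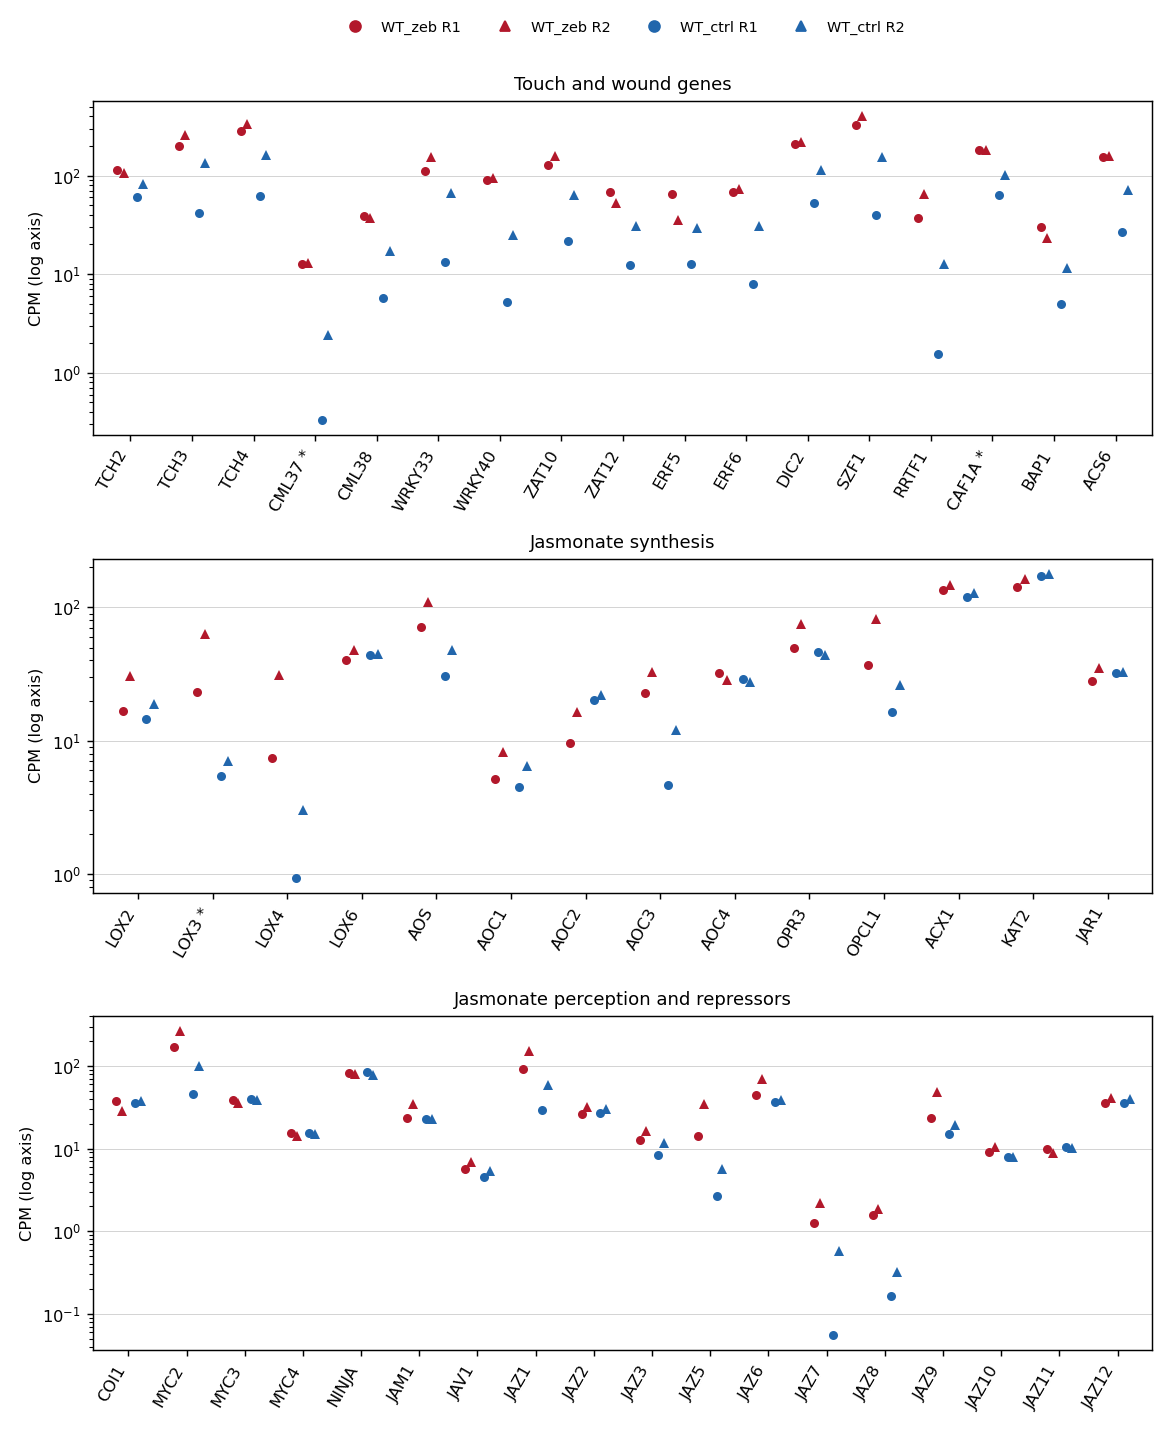
CPM (log axis) of all tested genes for touch and wound (top), jasmonate synthesis (middle) and jasmonate perception with its repressors (bottom) in each wild-type library. Red marks WT_zeb and blue WT_ctrl, circles are R1 and triangles R2, and an asterisk marks an adjusted p below 0.05. In the top panel the blue triangles lie above the blue circles. All 17 genes there have both red points above both blue ones, as do 23.7% of all genes tested.

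In the remaining stress and nutrient lists, called genes went in both directions for cold and iron and only rose for glucosinolates. The sugar starvation list held no call. Of 15 cold and dehydration genes tested 2 rose and 1 fell (20% called, against 2.3% of all genes tested, median 0.75). RCI2A, a small membrane protein first found as cold-inducible, had 16.8 and 17.9 CPM in WT_zeb and 66.2 and 67.1 CPM in WT_ctrl, a fall of 1.94 ± 0.12 on the log2 scale (0.26-fold, adjusted p = 0.000194), and it stayed called without any 1 wild-type library. AT4G30650, annotated in the same low temperature and salt responsive family, had 11.8 and 24.5 CPM in WT_zeb and 66.5 and 50.2 CPM in WT_ctrl (−1.69 ± 0.28, adjusted p = 0.0207). Replicates of RCI2A lay close together, and both genes were lower in every WT_zeb library. In contrast CBF1, the cold-response activator, had 16.9 and 23 CPM in WT_zeb and 5.73 and 7.82 CPM in WT_ctrl (1.56 ± 0.29, adjusted p = 0.0286), and KIN1, one of its dehydration-related targets, rose by 1.71 ± 0.31 (2.55 and 1.92 CPM in WT_zeb, 0.826 and 0.513 CPM in WT_ctrl, adjusted p = 0.0264). Both have close neighbouring copies, so their reads are uncertain. Without WT_ctrl R1 neither rise was called, CBF1 alone of them was called without WT_ctrl R2 or WT_zeb R1, and KIN1 alone without WT_zeb R2.

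Among 11 iron genes tested 1 rose and 1 fell (18.2% called, against 2.3% of all genes tested, median −0.49). Of the 11, 8 had a negative log2 fold change and 3 a positive one. FER1, the iron-storage ferritin induced by iron excess, had 66.8 and 63.7 CPM in WT_zeb and 35.5 and 33.3 CPM in WT_ctrl (0.92 ± 0.12, adjusted p = 0.00798). BTS, a ubiquitin ligase that restrains the iron-deficiency response, had 69.9 and 74.4 CPM in WT_zeb and 108 and 111 CPM in WT_ctrl (−0.60 ± 0.11, adjusted p = 0.0268). These groups did not overlap, and the bHLH factor of iron deficiency BHLH38 stood at −2.59 ± 0.58 without passing (adjusted p = 0.0546). Of 17 glucosinolate genes, which make sulfur-rich defence compounds, 2 rose (11.8%, against 1.66% of all genes tested, median 0.49), and 15 had a positive log2 fold change. The 2 were the aldoxime-forming enzymes CYP79F2, by 0.95 ± 0.20, and CYP79B2, by 1.02 ± 0.22 (adjusted p = 0.0429 and 0.0457). None of 12 sugar starvation genes tested was called or had an unadjusted p below 0.05, and DESeq2 called none. Their largest changes, in the asparagine synthetase DIN6 and the F-box gene KMD4, were 0.88 ± 0.57 and −0.49 ± 0.51. KMD4 had 35 and 7.93 CPM in WT_zeb and 33.2 and 27.2 CPM in WT_ctrl, so WT_zeb R2 stood apart, and it was called lower without WT_zeb R1 (−1.93, adjusted p = 0.033). TPS11, a trehalose phosphate synthase family gene, was called higher without WT_ctrl R2 (0.97, adjusted p = 0.0262, against 0.48 with all libraries). In the iron and glucosinolate lists no gene rose without WT_ctrl R1, and 4 glucosinolate genes rose without WT_ctrl R2.

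By annotation, 39 families held 3468 tested genes, of which 95 rose and 16 fell (3.2%, against 2.3% called of all genes tested). The B-box family had the highest share of calls, with 5 of 17 higher (29.4%), although 8 members had a negative log2 fold change and the median was 0.05. BBX19, the called member not described above, had 10.1 and 8.92 CPM in WT_zeb and 3.52 and 4.04 CPM in WT_ctrl (1.34 ± 0.22). The match to annotation text left out BBX24 and BBX25, which were called higher above. Chlorophyll-binding and photosystem genes held 6 rises and 1 fall among 61 (11.5%), the rises being antenna genes given above. Among other families 5 of 46 glutathione S-transferases rose (10.9%) and 4 of 35 MATE efflux carriers (11.4%). Of 25 aquaporins 3 rose (12%) and of 87 UDP-glycosyltransferases 6 (6.9%), against 1.66% of all genes tested, and none fell. Part of these rises were counted above: TT19, UGT78D2 and AT4G14090 are in the flavonoid lists. The UDP-glycosyltransferase annotation also takes in the starch synthase GBSS1. Without WT_ctrl R1 these 4 families held 1, 0, 0 and 2 rises, and B-box genes none. GSTU11 had 19 and 21 counts in WT_zeb and 1 and 1 count in WT_ctrl (3.97 ± 0.72, adjusted p = 0.0267), and GSTU24 rose by 1.85 ± 0.28. GSTF6 and GSTF7, which rose by 1.74 ± 0.38, are neighbouring copies that may share reads. The MATE carrier AT5G52050 had 18.8 and 21.5 CPM in WT_zeb and 3.25 and 5.25 CPM in WT_ctrl (2.25 ± 0.35, adjusted p = 0.0148). The aquaporin PIP2A, a water channel of the plasma membrane, had 274 and 280 CPM in WT_zeb and 136 and 131 CPM in WT_ctrl (1.05 ± 0.13, adjusted p = 0.00695), and NIP6;1, a boron channel, rose by 1.33 ± 0.15 (adjusted p = 0.00462). AT4G19460, a UDP-glycosyltransferase by annotation, rose by 1.62 ± 0.29 (adjusted p = 0.0262). All of these genes were higher in both WT_zeb libraries, which adds little, since they were picked as called higher. GSTF7, GSTU24, AT5G52050, BBX19 and the aquaporins were named after their values were seen, as were the genes of the next paragraph other than AT1G19210, AT1G33760 and AT1G76640.

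Late embryogenesis abundant and lipid transfer genes held 4 rises each, of 43 (9.3%) and 49 (8.16%) tested. Over all genes tested 1.66% rose, which is the share to set beside each family here. Of 44 expansin and xyloglucan genes 4 rose (9.09%), among them the xyloglucan-modifying enzyme XTR6, with 18.6 and 25.1 CPM in WT_zeb and 2.53 and 7.37 CPM in WT_ctrl (2.16 ± 0.39, adjusted p = 0.0269), and the expansin-like gene EXLA1 (1.49 ± 0.25). Of 57 AP2/ERF genes 5 rose (8.77%), with AT1G19210 and AT1G33760 at 2.94 ± 0.57 and 2.90 ± 0.57. AT1G33760 had 9.9 and 11.1 CPM in WT_zeb and 0.33 and 2.56 CPM in WT_ctrl, where R2 again lay above R1. Of 93 calcium-binding EF-hand genes 5 rose (5.38%), with CML37 and AT1G76640 (1.94 ± 0.42) the widest apart. Without WT_ctrl R2 the AP2/ERF and EF-hand families had 16 and 12 rises, and without WT_ctrl R1 neither had one, nor had the expansin and xyloglucan genes. Of 54 NAC genes 4 rose (7.41%), among them NAC062, a membrane-bound stress factor (1.56 ± 0.33), and NAC103, a factor of the unfolded protein response (1.08 ± 0.20), beside NAC044 and NAC085 of the damage list.

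Several families held no call by edgeR, where 2.3% of all genes tested were called. None of 325 ribosomal protein genes or 74 histone genes was called, while 23 and 6 had an unadjusted p below 0.05, and DESeq2 called 1 ribosomal gene lower and no histone gene. Of 73 bHLH, 35 bZIP, 39 C2H2 zinc finger and 11 terpene genes under those annotations none was called either (11, 5, 4 and 1 with an unadjusted p below 0.05, and DESeq2 called 1 bZIP and 1 C2H2 gene higher). The match to annotation text left out the bHLH genes TT8 and PIF5 and the bZIP gene HYH, which were called higher above. Pentatricopeptide repeat proteins, which process organelle RNA, lay lower on balance: 187 of 221 had a negative log2 fold change (median −0.24) and 136 had both WT_zeb libraries below both WT_ctrl libraries, as did 24.8% of all genes tested. One of them, AT5G24060, fell, with 32.1 and 38.1 CPM in WT_zeb and 58.1 and 53 CPM in WT_ctrl (−0.66 ± 0.12, adjusted p = 0.0285).

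Transposable elements, which DNA methylation keeps silent, were called at about the share of all genes. Of 1895 annotated elements with values, 1636 had 0 counts in the 4 wild-type libraries and 90 were tested, of which 1 rose and 1 fell (2.22%, against 2.3% of all genes tested). At least 1 count was seen for 174 and 167 elements in WT_zeb and for 174 and 168 elements in WT_ctrl, and their summed level was 1132 and 960.3 CPM in WT_zeb and 1193 and 1130 CPM in WT_ctrl, of which the 10 highest elements held 61.2%. The copia-like AT3G28160 had 19 and 21.6 CPM in WT_zeb and 10.3 and 9.23 CPM in WT_ctrl (1.05 ± 0.15, adjusted p = 0.0111), and the copia-like AT4G16870 had 15.2 and 17.3 CPM in WT_zeb and 43.6 and 33.1 CPM in WT_ctrl (−1.24 ± 0.24, adjusted p = 0.032). These elements changed in opposite directions, and how reads of repeated elements were counted is not given in the sources used here.

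**Figure D4:**
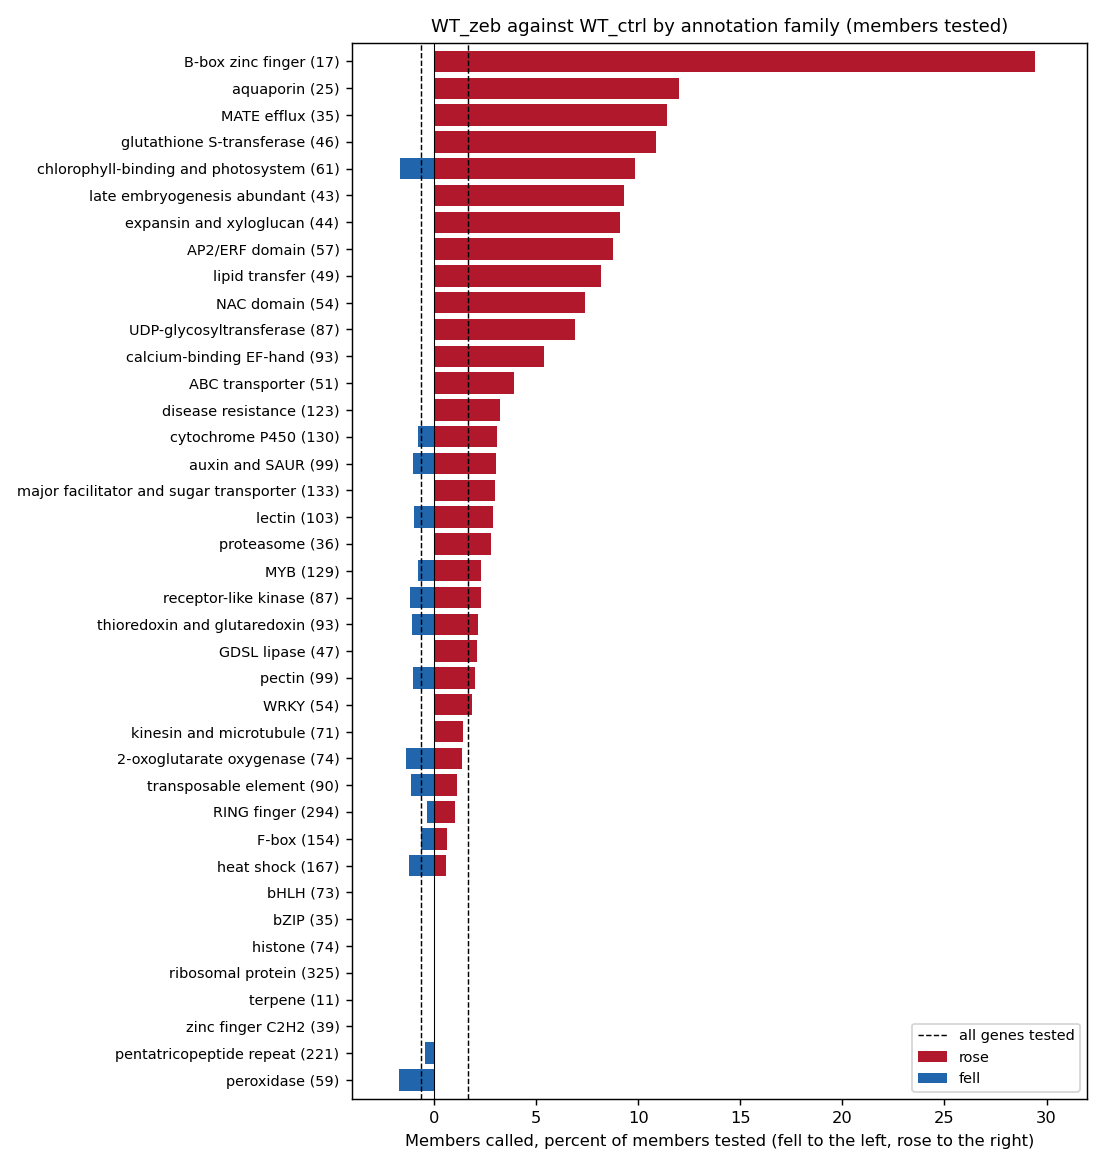
Share of tested members called in each annotation family, in percent, with rises to the right in red and falls to the left in blue. Dashed lines mark the shares over all genes tested, 1.66% and 0.635%, and the number of members tested stands beside each name. B-box genes reach 29.4%, while ribosomal, histone, bHLH, bZIP, C2H2 and terpene genes have no bar. Families follow annotation text, which leaves out the called genes TT8, PIF5, HYH, BBX24 and BBX25.

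The largest rises outside the set-aside lists, at a mean of at least 2 CPM, were in genes of diverse roles. Of the 15 taken, LOX3, CML37, BBX29, DREB19 and 2 other AP2/ERF genes are in the lists or families above. RNS1, a ribonuclease induced by wounding and phosphate starvation, had 4.26 and 3.45 CPM in WT_zeb and 0.551 and 0.448 CPM in WT_ctrl (2.92 ± 0.53, adjusted p = 0.0273). RAS1, a regulator of the response to abscisic acid and salt, had 11.8 and 18.4 CPM in WT_zeb and 1.38 and 2.82 CPM in WT_ctrl (2.86 ± 0.48, adjusted p = 0.02). BCB, a blue-copper-binding protein, had 33.4 and 57.7 CPM in WT_zeb and 2.31 and 12.4 CPM in WT_ctrl (2.66 ± 0.57, adjusted p = 0.0454). All 3 were higher in both WT_zeb libraries, and in BCB the WT_ctrl libraries were themselves far apart. CPuORF10, a conserved upstream reading frame, had 176 and 95 counts in WT_zeb and 0 and 20 counts in WT_ctrl, and it may share reads with the adenosylmethionine decarboxylase gene AT5G15950, which rose by 1.43 ± 0.18 (adjusted p = 0.00695). The others were BPS3, AGC2-1, AT3G22910, BGLU11 and AT4G22960, between 2.63 and 3.37, and all 15 lay between 2.57 and 3.50.

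The 15 largest falls lay between −3.68 and −1.69. AT5G23240, a DNAJ-domain gene, had 0 and 12 counts in WT_zeb and 86 and 54 counts in WT_ctrl (−3.68 ± 0.69, adjusted p = 0.0291), and RbcX1, a chaperone for the assembly of Rubisco, had 0.196 and 1.59 CPM in WT_zeb and 9.42 and 7.56 CPM in WT_ctrl (−3.29 ± 0.49, adjusted p = 0.0132). AT2G33830, a dormancy and auxin associated gene, had 6.13 and 21.2 CPM in WT_zeb and 69.5 and 62.1 CPM in WT_ctrl (−2.28 ± 0.41, adjusted p = 0.0268). In each of them WT_zeb R1 was the lowest library and both WT_zeb libraries lay below both WT_ctrl libraries. CCL, annotated as CCR-like, had 32 and 56 CPM in WT_zeb and 158 and 131 CPM in WT_ctrl (−1.72 ± 0.23, adjusted p = 0.00833). DREB2C, a dehydration and heat response activator, fell by 1.72 ± 0.36 on the log2 scale, and AT1G53035, of unknown function, by 1.75 ± 0.18. Several of the genes named above overlap a neighbour in the RefSeq TAIR10.1 annotation, among them RCI2A, AT4G14090, AT5G03350, BBX24, BBX25, BBX32, F3H, TT19, SCPL10, SPA3, CAO, FER1, LHCB2.3, LHCB3, LHCB4.2, KMD4, DIN6, DREB19, AT1G19210, RbcX1 and AT5G23240, and whether counting used the strand is not given in the sources used here.

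The wild-type response differed from that of nse4a-2, by a test of the difference, in 152 of 19682 genes tested. The difference of the responses (wild type minus nse4a-2) was positive in 44 genes (0.224%) and negative in 108 (0.549%), which is 0.772% of genes tested, while 8.94% of genes rose and 5.74% fell in nse4a-2 itself. Among 238 tested members of the 18 lists the difference was positive in 7 and negative in 2. Of 10 early flavonoid enzymes 1 rose and 4 fell in nse4a-2 (median −0.44), against 3 and 0 in wild type (median 0.50). Of 25 light-signalling genes 4 rose and 5 fell in nse4a-2, against 4 and 0 in wild type. Of 8 late anthocyanin enzymes tested 6 rose in nse4a-2 (median 1.22) and 7 in wild type (median 1.82), and none fell in either. They were not all the same genes: BGLU10 was called only in nse4a-2 and AT4G14090 only in wild type. The difference was positive in 1 of the 8, AT4G14090, and negative in 1, BGLU10. F3H had 28.8 and 31.4 CPM in WT_zeb, 17.2 and 15.5 CPM in WT_ctrl, 22.7 and 19.2 CPM in nse4a-2_zeb and 27.5 and 30.6 CPM in nse4a-2_ctrl. It rose in wild type and fell in nse4a-2 (−0.47, adjusted p = 0.0434), with a difference of 1.35 ± 0.19 (adjusted p = 0.0217). UGT78D2 and AT4G14090 differed by 1.18 ± 0.22 and 1.44 ± 0.27 (adjusted p = 0.0463 and 0.0479). UGT78D2 overlapped between the zebularine groups, with 41.5 and 47.4 CPM in WT_zeb and 43.9 and 48.6 CPM in nse4a-2_zeb. Its controls had 22.5 and 22.2 CPM in WT_ctrl and 44.6 and 60.6 CPM in nse4a-2_ctrl. AT4G14090 had 6.35 and 7.73 CPM in nse4a-2_zeb and 5.47 and 5.13 CPM in nse4a-2_ctrl, against 18.3 and 15.6 CPM in WT_zeb. For DFR, which rose in both genotypes by 2.50 and 1.46, the difference of 1.04 did not pass (adjusted p = 0.158), nor did that of LDOX (1.02, adjusted p = 0.0973).

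Of light regulators RUP2, with 5.34 and 5.31 CPM in WT_zeb, 2.31 and 2.43 CPM in WT_ctrl, 2.1 and 2.31 CPM in nse4a-2_zeb and 3.88 and 4.64 CPM in nse4a-2_ctrl, rose in wild type and fell in nse4a-2 (difference 2.11 ± 0.35, adjusted p = 0.0333). BBX25 rose in wild type and stood at 0.16 in nse4a-2 (difference 1.51 ± 0.27, adjusted p = 0.0416). It had 28.3 and 38.6 CPM in nse4a-2_zeb and 29.1 and 30.8 CPM in nse4a-2_ctrl, which lay above the 12.1 and 16.8 CPM of WT_ctrl. HY5 and GNL, a GATA factor of greening, were not called in wild type, fell in nse4a-2 by 2.0 and 2.01 on the log2 scale, and differed by 1.67 ± 0.24 and 1.90 ± 0.30 (adjusted p = 0.0239 and 0.029). RCI2A had 16.8 and 17.9 CPM in WT_zeb, 66.2 and 67.1 CPM in WT_ctrl, 174 and 191 CPM in nse4a-2_zeb and 112 and 125 CPM in nse4a-2_ctrl. It fell in wild type and rose in nse4a-2 (0.63, adjusted p = 0.00645), and its difference of −2.57 ± 0.16 had an adjusted p of 0.000725. Of 74 histone genes, none of them called in wild type, 24 fell and 2 rose in nse4a-2, and the difference was positive in 9. The late-pathway gene BGLU10 also had a lower response in wild type (0.45, against 2.22 in nse4a-2, difference −1.77 ± 0.30, adjusted p = 0.0352).

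**Figure D5:**
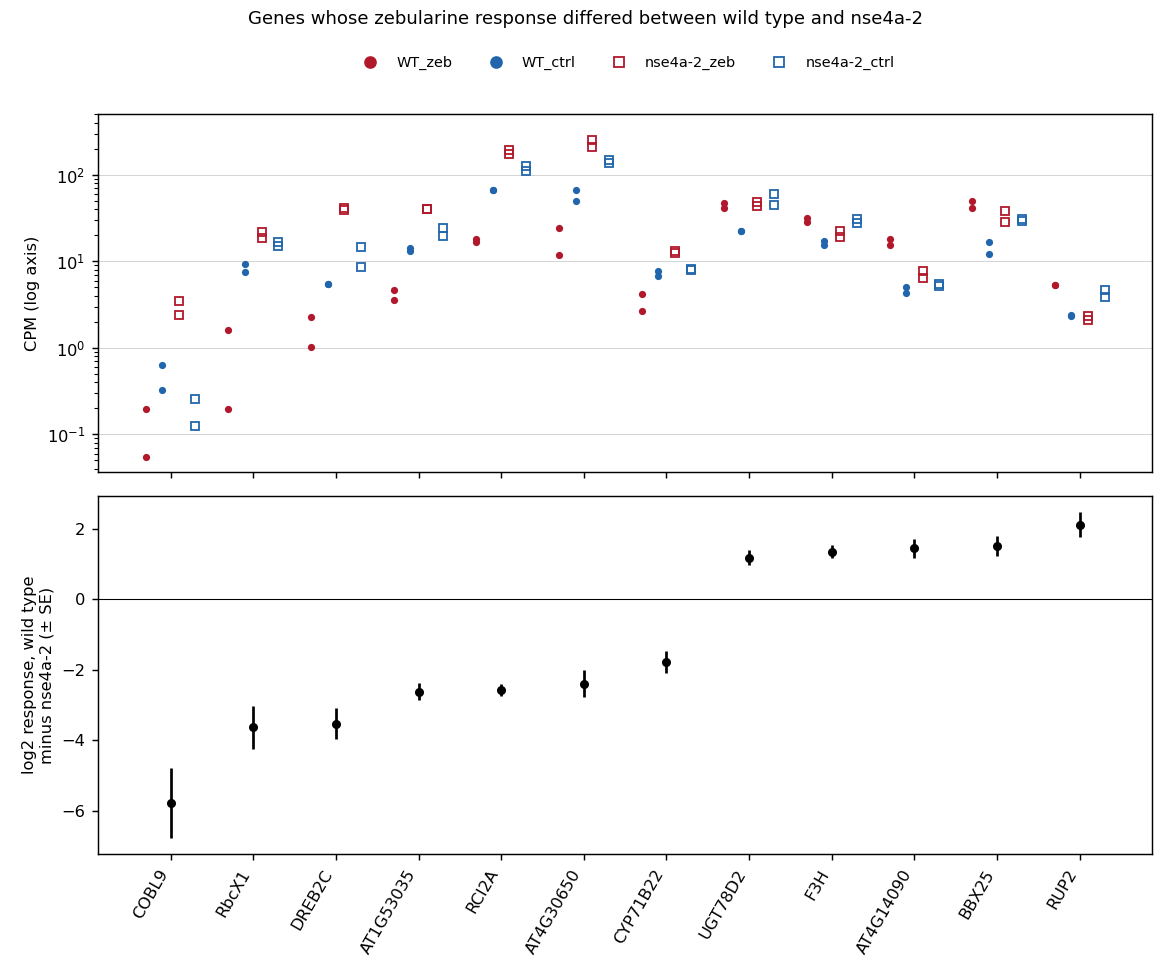
CPM (log axis, top) in all 8 libraries and the difference of the log2 zebularine responses, wild type minus nse4a-2, with its SE (bottom) for 12 named genes whose difference passed the test. Filled circles are wild type and open squares nse4a-2, red with zebularine and blue without. RCI2A and AT4G30650 lie lower in WT_zeb than in WT_ctrl and higher in nse4a-2_zeb than in nse4a-2_ctrl.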

How the data were processed

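Per the file headers, the values used are raw read counts per gene and library, which the authors deposited unnormalized. Per the submitters' processing notes TopHat2, Cuffdiff and TAIR10 were used, with no roles or versions; the counting tool is not given in the sources used here. An adjusted p-value and a call per gene, as deposited by the authors, were used for their calls only, and 16 other per-sample columns were not used. Gene names came from the table and RefSeq (31912 genes found by locus tag). After filterByExpr and TMM scaling, edgeR 4.0.16 (R 4.3.3) fitted all 4 groups together, with the quasi-likelihood test and Benjamini-Hochberg adjustment over all genes, 2-sided, called below 0.05. CPM use TMM-scaled totals. The SE is the log2 fold change over the square root of F. The common biological coefficient of variation was 13.4%. The procedure was tested on simulated counts.

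The members, lists and families were chosen with earlier results of these data known. Named genes were every called member of the 18 lists, the 2 largest changes of lists without a call, the 15 largest rises and falls at a mean of at least 2 CPM, and the 2 largest called members of families with 5 or more calls. Other genes, such as LBD37, AOC2, PDF1.3, PR4, TPS11 and AT5G15950, were named after their values were seen. Floors cover counting error only. The p-values of the main fit set each change against a spread between libraries that was estimated over all 8 libraries of the 4 groups. Alternatives were DESeq2, median-ratio scaling, no filter, wild-type libraries only, the replicate number as a block and leaving out each wild-type library.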

Additional observations from a re-analysis of the deposited data

Results flagged for a closer look

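The response to zebularine differed between wild type and nse4a-2, by a test of the difference itself in edgeR's quasi-likelihood fit over all genes, in 12 of the genes that the naming rule picked or that mark a cell type, and HY5, GNL and BGLU10, given in the report, passed the same test. It was higher in wild type (wild type minus nse4a-2, log2 scale) for RUP2 by 2.11, BBX25 by 1.51, AT4G14090 by 1.44, F3H by 1.35 and UGT78D2 by 1.18. It was lower in wild type for COBL9 (−5.77), RbcX1 (−3.63), DREB2C (−3.52), AT1G53035 (−2.62), RCI2A (−2.57), AT4G30650 (−2.39) and CYP71B22 (−1.77).

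DREB2C had 1.03 and 2.3 CPM in WT_zeb, 5.4 and 5.45 CPM in WT_ctrl, 38.9 and 41.8 CPM in nse4a-2_zeb and 14.5 and 8.6 CPM in nse4a-2_ctrl, so it fell in wild type and rose in the mutant (1.81, adjusted p = 0.00313). AT1G53035 had 3.53 and 4.65 CPM in WT_zeb, 14.3 and 13.1 CPM in WT_ctrl, 40.1 and 40.4 CPM in nse4a-2_zeb and 24.5 and 19.4 CPM in nse4a-2_ctrl. CYP71B22, a cytochrome P450, fell in wild type (−1.09 ± 0.22, adjusted p = 0.0395) and stood at 0.68 in the mutant (adjusted p = 0.0573). COBL9, a root hair marker, had 4 and 1 counts in WT_zeb and 6 and 10 counts in WT_ctrl, and 2.41 and 3.52 CPM in nse4a-2_zeb, so its large difference rests on few reads in wild type.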

How the results depend on the processing

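The count of genes higher in WT_zeb, 327 in the report, was 677 with DESeq2, 851 without the low-count filter and 150 with wild-type libraries only, and 18 to 447 when each wild-type library was left out. The count of genes lower, 125, was 219, 276 and 48 under those alternatives and 5 to 124 on leaving out a library. Members of the 18 lists higher, 40, were 66, 85 and 23, and 4 to 48, and members lower, 3, were 6, 9 and 1, and 1 to 5. With a library left out, its lone partner takes the spread of the remaining groups. Median-ratio scaling gave 342 and 119 genes, with a median shift of 0.012 in log2. With DESeq2 the difference between genotypes was positive in 163 genes and negative in 333.

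With the replicate number as a block, 749 genes were higher and 206 lower, 73 list members were higher and 8 lower, and the difference was positive in 168 and negative in 288. Of touch and wound genes 16 were then higher, against 2 in the report, and of jasmonate genes 11 were higher and 2 lower. Across genes, same-numbered libraries of different groups deviated together with r between −0.086 and 0.234, so the numbers were not taken to pair libraries. Every one of the 77 called named genes stayed called with the block.

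Of the 77 called named genes, 75 stayed called with DESeq2 (1 lost, 1 with no value), 77 with median-ratio scaling and without the filter, and 37 with wild-type libraries only. Leaving out WT_ctrl R1, WT_ctrl R2, WT_zeb R1 or WT_zeb R2 kept 11, 57, 46 and 42 of them. KMD4, not called, was 0.22 without WT_zeb R2 and −1.93, called, without WT_zeb R1, the one sign change among 86 named genes. Each group has 2 libraries, and genes near 3 counts cannot be sized.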
